A study of Mus musculus with 16 samples.

Results

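Aminoacyl-tRNA synthetases join each amino acid to its transfer RNA and so supply the ribosome with charged tRNA. Mammalian cells use separate sets of enzymes for the cytosol and for mitochondria, and both sets are encoded by nuclear genes. Several cytosolic enzymes are known targets of ATF4, the transcription factor of the integrated stress response, which also induces Gdf15. Brown adipose tissue (BAT) is rich in mitochondria, whose own ribosomes translate the subunits encoded by the mitochondrial genome.

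The genes described are 36 named synthetase genes among 49066 gene symbols in bulk RNA sequencing of BAT, namely 20 for cytosolic and 16 for mitochondrial enzymes. They were listed by name. Gars and Kars encode both forms of the glycine and lysine enzymes and were counted as cytosolic. Of the 36 genes, 35 had a mean of at least 1 TPM, the length-normalised share of a transcript in its library, and entered the tests. Mars2 did not.

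The 16 libraries form 4 groups of 4, WT and KO of each sex, all on the C57BL6/J background. All mice were 18 weeks old and had been fed a HFD with 60% of its calories from fat for 12 weeks from 6 weeks of age. KO mice carried Gdf15 fl/fl with a Cre recombinase driven by the Ucp1 promoter, so that Gdf15 was deleted in thermogenic adipocytes and not in the other cells of the tissue. WT littermates were Gdf15 fl/fl without Cre, so both genotypes carried the floxed alleles. The labels number the libraries within a group and do not name the animals, so each is taken as 1 mouse here.

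Gdf15 was at 0.368, 0.690, 1.55 and 3.81 TPM in the male WT libraries and at 0.0801 to 0.272 TPM in the male KO libraries. It was at 0.0622 to 0.311 TPM in female WT libraries, and in female KO libraries it was listed at 0 in 3 and at 0.0794 TPM in 1. The brown adipocyte gene Ucp1 was at 2353 to 4423 TPM in every library, and all 14 brown adipocyte markers had a mean above 1 TPM. The share of TPM on genes of the mitochondrial genome ran from 34.5 to 59.8%, and the summed level of 8 skeletal muscle markers ran from 2.16 to 4872 TPM between libraries, with a wide range in every group. In female WT library 4, a transcript without a match in the annotation took 16.5% of the TPM, against at most 0.0527% elsewhere. Library names carry a prefix (5, 8b, 9 or 10) whose meaning is not given, and male WT and female WT libraries share none of these prefixes.

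Because ATF4 and related factors are known to bind the C/EBP-ATF response element, TGATGNAA, this motif was searched on both strands in RefSeq promoters, from 250 bases before to 50 after the start of each gene (build GRCm38.p6). Windows were found for 27 of the 36 genes. Cars, Hars, Lars, Nars, Rars, Vars, Wars, Hars2 and Pars2 had no window, so the motif was not searched in them. The motif was present in 5 of 13 cytosolic genes (38.46%) and in 0 of 14 mitochondrial genes, and in 4.51% of all 27025 genes with a window. The genes with a match were Aars, Gars, Iars, Tars and Yars, all of them on the list of 11 known ATF4 targets among the cytosolic enzymes, of which 7 had a window. The stretches with the match are shown because no mitochondrial gene with a window held one. Each runs from 120 bases before the start to 20 bases from the start on, 5′ to 3′ on the strand of the gene, with the match in capitals.
Aars, chr8:111033722-111033861, plus strand: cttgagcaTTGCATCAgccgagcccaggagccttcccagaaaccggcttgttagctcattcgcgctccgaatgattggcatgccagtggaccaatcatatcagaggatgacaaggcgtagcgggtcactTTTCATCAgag
Gars, chr6:55037881-55038020, plus strand: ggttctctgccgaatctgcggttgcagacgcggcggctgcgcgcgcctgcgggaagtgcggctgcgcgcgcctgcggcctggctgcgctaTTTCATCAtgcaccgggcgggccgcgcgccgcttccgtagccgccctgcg
Iars, chr13:49682010-49682149, plus strand: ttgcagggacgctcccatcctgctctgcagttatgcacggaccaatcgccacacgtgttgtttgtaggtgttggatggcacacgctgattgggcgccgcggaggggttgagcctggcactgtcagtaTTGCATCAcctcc
Tars, chr15:11399639-11399778, minus strand: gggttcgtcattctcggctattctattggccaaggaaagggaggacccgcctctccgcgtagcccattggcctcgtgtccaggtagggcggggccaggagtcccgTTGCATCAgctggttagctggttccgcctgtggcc
Yars, chr4:129189783-129189922, plus strand: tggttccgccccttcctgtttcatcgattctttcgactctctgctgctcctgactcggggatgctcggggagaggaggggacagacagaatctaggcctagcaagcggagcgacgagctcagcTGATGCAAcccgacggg
Aars held 2 matches. A match is a run of letters and not a measured binding site.

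Both sets of enzymes were expressed at similar levels, with a far wider range among the mitochondrial genes. The median over genes of the median TPM was 14.5 for cytosolic genes (7.26 to 44.8) and 13.5 for mitochondrial genes (0.717 to 110.6), against 7.25 for the 12210 genes with a mean of at least 1 TPM. In all, 32 of the 36 were above that last value. A median of at least 10 TPM was reached by 17 of the 20 cytosolic and 10 of the 16 mitochondrial genes. Between neighbours in the order of the medians, ranges over the 15 libraries other than female WT 4 overlapped in 32 of 35 cases. The 3 gaps were below Lars2, between Iars and Ears2 and above Mars2.

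**Figure D1:**
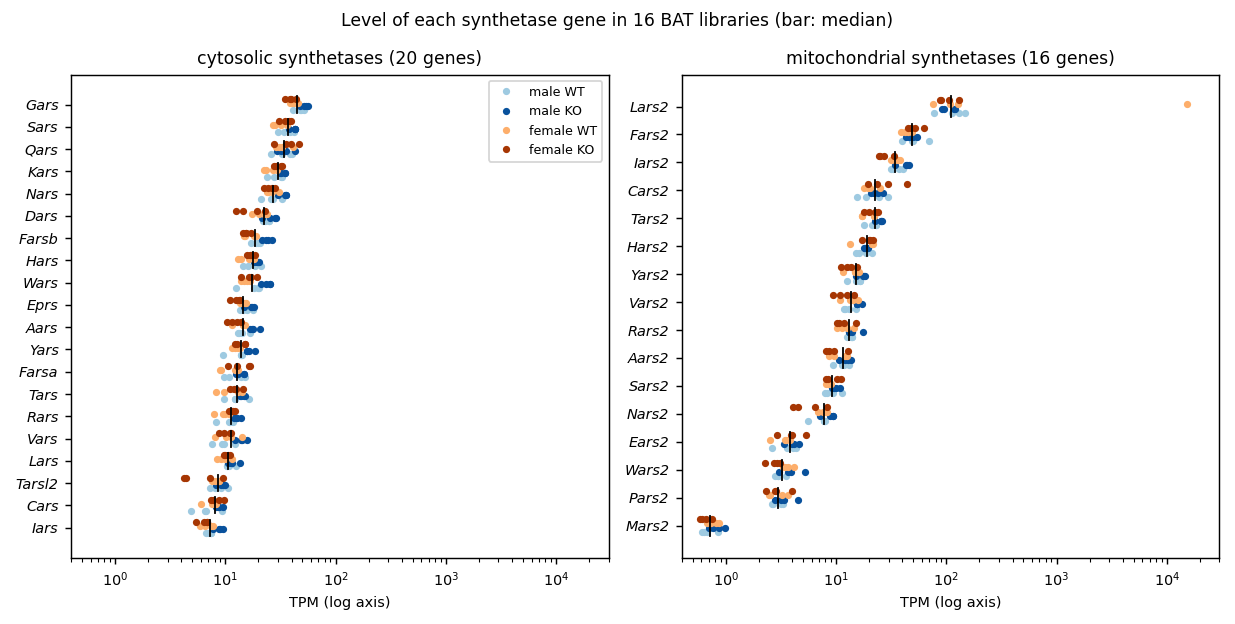
TPM (log axis) of each synthetase gene in 16 libraries, with cytosolic genes on the left and mitochondrial genes on the right, each point a library coloured by group and each bar the median over libraries. Cytosolic medians run from 7.26 to 44.8 TPM and mitochondrial medians from 0.717 to 110.6 TPM, and Lars2 has 1 point, from female WT 4, at 15315 TPM.

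The 3 genes with the highest mean were Lars2, Fars2 and Gars. Fars2, the mitochondrial phenylalanine enzyme, was at 39.96, 69.6, 48.4 and 49.4 TPM in male WT, 45.5, 54.6, 49.5 and 43.5 in male KO, 44.99, 39.2, 48.4 and 42.03 in female WT and 63.2, 51.7, 45.01 and 48.3 in female KO mice. Gars was at 41.4, 52.1, 49.1 and 47.4 TPM in male WT, 47.6, 56.3, 51.6 and 54.2 in male KO, 45.9, 40.3, 42.4 and 38.9 in female WT and 38.7, 43.8, 35.1 and 39.5 in female KO mice. For both genes the groups of each sex overlapped.

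The 3 genes with the lowest mean were mitochondrial: Mars2, Pars2 and Wars2, the methionine, proline and tryptophan enzymes. Mars2 was at 0.628, 0.607, 0.846 and 0.674 TPM in male WT, 0.760, 0.991, 0.866 and 0.705 in male KO, 0.671, 0.816, 0.866 and 0.728 in female WT and 0.582, 0.655, 0.604 and 0.754 in female KO mice. Pars2 was at 2.69, 3.33, 3.15 and 2.61 TPM in male WT, 3.19, 4.48, 3.41 and 2.79 in male KO, 3.26, 2.51, 3.70 and 2.48 in female WT and 2.85, 3.97, 2.82 and 2.32 in female KO mice. Neither gene separated the genotypes in either sex. Hars and Hars2, the neighbouring genes of the histidine enzymes whose exons overlap on opposite strands, ranged over 12.97 to 20.9 and 13.4 to 21.8 TPM. The threonine enzymes Tars, Tars2 and Tarsl2 ranged over 8.26 to 16.6, 17.3 to 25.9 and 4.22 to 10.5 TPM.

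Not all of these TPM came from transcripts that encode a protein. Protein-coding transcripts made up less than 50% of the TPM for 9 of the 36 genes, 5 cytosolic and 4 mitochondrial, and more than 90% for 14. The lowest shares were 15.3% for Qars, the glutamine enzyme, 19.4% for Lars2 and 27.5% for Nars, the asparagine enzyme. Counting protein-coding transcripts only, the median over genes of the mean TPM was 9.85 for cytosolic and 10.4 for mitochondrial genes. How far kallisto's split between transcripts of one gene can be relied on was not tested.

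The low coding share of Lars2, the mitochondrial leucine enzyme, goes with 1 other transcript. The gene as a whole was at 77.5, 146.8, 112.6 and 130.2 TPM in male WT, 116.5, 121.2, 94.9 and 91.01 in male KO, 127.5, 76.3, 108.7 and 15315 in female WT and 89.8, 87.2, 106.7 and 130.4 in female KO mice. Female WT library 4 was far above every other, with 1.53% of its TPM on this gene. That excess lay on 1 transcript annotated for nonsense-mediated decay, at 15293 TPM there and 53.5 to 132.9 TPM in the other 15 libraries.

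The main protein-coding transcript of Lars2 was at 21.2 TPM in female WT 4, beside 22.1 to 27.6 in the other female WT libraries. It was at 12.98 to 29.5 TPM in males and at 5.2, 21.6, 12.3 and 9.23 TPM in female KO mice. All 3 female KO libraries other than replicate 2 were thus below every female WT library. The mitochondrial ribosomal RNA mt-Rnr1 was at 27150 TPM in female WT 4, at 5870 and 6290 TPM in female KO 1 and 4 and at 1367 to 3554 TPM in the other 13 libraries. Its part in the Lars2 values was not tested. In female WT 4 the excess touches the gene total of Lars2 in every comparison with female WT mice, so its log2 fold change of -1.80 in females, with a 95% interval from -5.13 to 1.53, rests on that library.

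**Figure D2:**
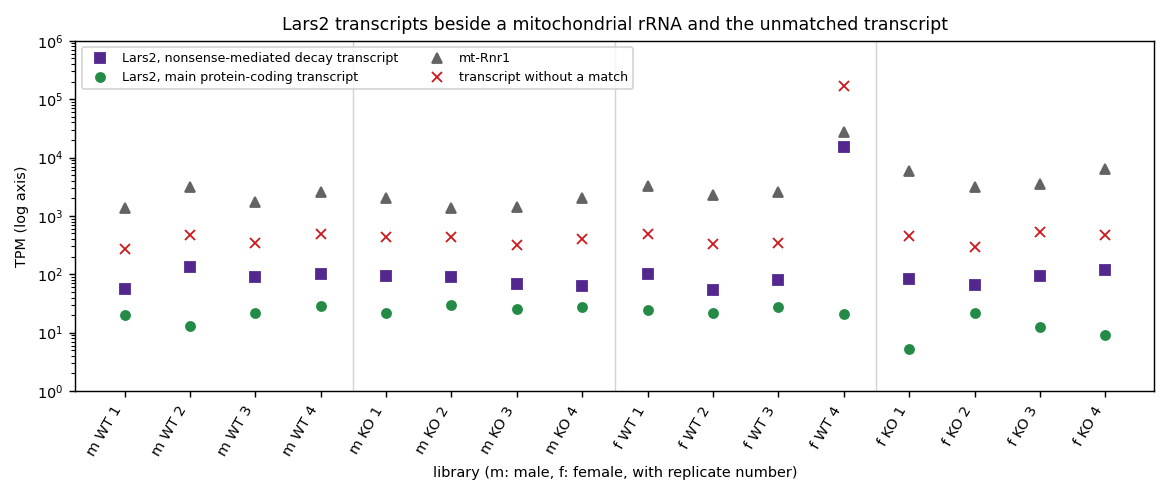
TPM (log axis) in each of the 16 libraries of the decay transcript of Lars2, of its main protein-coding transcript, of mt-Rnr1 and of the transcript without a match. In female WT 4 the decay transcript is at 15293 TPM while the protein-coding transcript, at 21.2 TPM, is near that of the other female WT libraries, and it is lowest in female KO 1 at 5.2 TPM.

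For 14 amino acids a mitochondrial and a cytosolic enzyme could be set side by side within a library, a ratio that does not depend on the scaling of TPM. The mitochondrial gene had the higher TPM for 9 and the lower for 5, and the sign was the same in all of the 15 libraries other than female WT 4 for 10. On the log2 scale the mean ratio over those libraries was 3.29 for leucine, 2.25 for isoleucine, 1.93 for phenylalanine and 1.59 for cysteine. It was -2.47 for tryptophan, -1.99 for glutamate, -1.97 for serine and -1.96 for asparagine. The glutamate ratio compares Ears2 with Eprs, which charges glutamate and proline. All transcripts of a gene are counted in these ratios, which therefore depend on transcript type. Over the same libraries Lars2 had a mean of 107.8 TPM and Lars of 10.9, but 20.9 and 4.74 on coding transcripts. Hars2 had 18.7 and Hars 17.7 TPM, but 10.7 and 17.6 on coding transcripts, so that their order turned.

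Between genotypes these ratios were mostly lower in KO mice, in 12 of 14 pairs in males and 11 of 14 in females, and no difference passed correction. Exact two-sided permutation tests of all 28 differences gave adjusted p-values of at least 0.32, where the smallest p the design allows is 0.0286 unadjusted. Only for tryptophan in females did the groups not overlap. The log2 ratio of Wars2 to Wars was -2.28, -1.84, -2.12 and -2.07 in female WT and -2.73, -2.45, -2.62 and -2.58 in female KO mice, a difference of -0.52 (n = 4 per group, exact permutation p = 0.0286, adjusted p = 0.32). In males it was -2.50 ± 0.298 in WT and -2.60 ± 0.231 in KO mice (SD, n = 4).

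**Figure D3:**
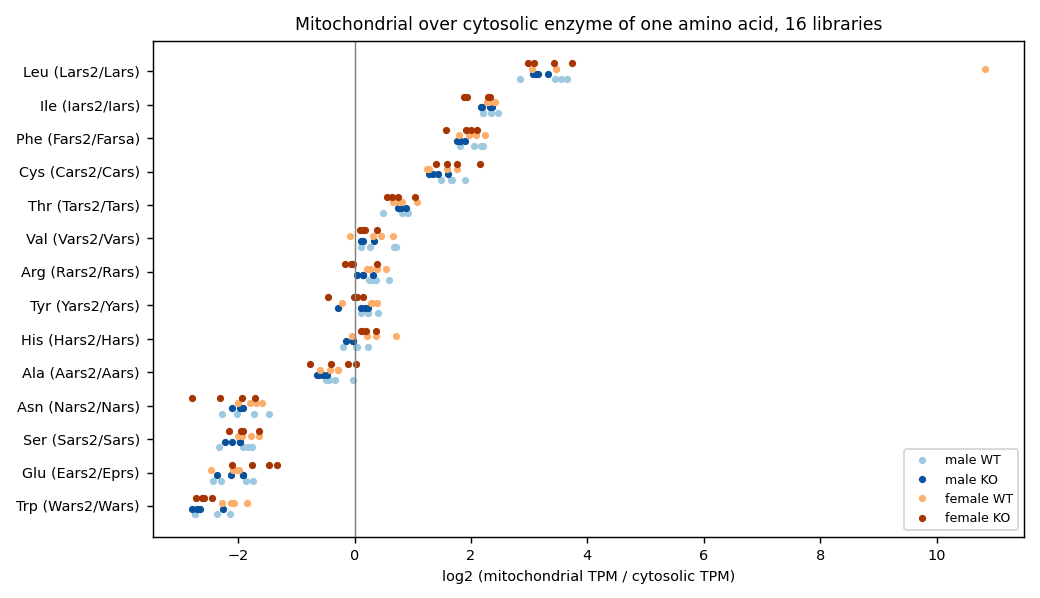
Log2 ratio of mitochondrial to cytosolic TPM for 14 amino acids, each point a library coloured by group, with a line at equal TPM. The mean runs from 3.29 for leucine to -2.47 for tryptophan, and 1 leucine point, from female WT 4, lies at 10.8.

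In male mice, KO libraries had slightly more synthetase RNA than WT libraries, on a background in which most genes were shifted the same way. The TPM of the 20 cytosolic genes summed to 314.4, 397.3, 366.96 and 416.2 in male WT and to 402.2, 466.2, 443.3 and 427.97 in male KO mice, with overlap between the groups. By limma on log2(TPM + 0.5), 33 of 35 genes had an estimate above 0, with a median of 0.21 for cytosolic, 0.13 for mitochondrial and 0.16 for all 12177 genes tested. Estimates ran from 0.03 to 0.53 among cytosolic and from -0.11 to 0.30 among mitochondrial genes. None passed an adjusted p of 0.05, as did 0.00821% of all genes. An unadjusted p under 0.05 was reached by 9 of 35 genes, all of them higher in KO mice and 8 of them cytosolic, where 17.7% of all genes were higher and 1.07% lower. The count was 5 without male KO 2, 3 or 4, and 6 without male WT 3. Over the fits that left out 1 library, 1138 to 2879 of all genes were higher at this threshold and 97 to 186 lower. Groups did not overlap for 7 genes, all higher in KO mice, where 9.54% of all genes were higher in this way and 0.673% lower.

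Vars, the cytosolic valine enzyme, had the smallest p. It was at 7.58, 9.30, 9.73 and 12.20 TPM in male WT and at 12.25, 15.9, 14.3 and 13.96 TPM in male KO mice, so the lowest KO mouse was above the highest WT mouse by a narrow margin. Its log2 fold change was 0.53 (SE 0.14, limma adjusted p = 0.179). The phenylalanine enzyme subunit Farsb was at 16.96, 20.003, 19.1 and 20.8 TPM in WT and 21.6, 26.5, 24.2 and 23.5 TPM in KO mice for a fold change on the log2 scale of 0.31 (SE 0.10, adjusted p = 0.205). Here too the groups did not overlap. Aars, the alanine enzyme, was at 12.9, 13.2, 14.3 and 16.8 TPM in WT and 16.7, 20.8, 17.8 and 17.6 TPM in KO mice for a fold change on the log2 scale of 0.34 (SE 0.11, adjusted p = 0.205), with overlap at 1 mouse. Iars, the isoleucine enzyme, was at 6.73, 7.17, 7.41 and 7.35 TPM in WT and 7.70, 8.90, 9.46 and 8.77 TPM in KO mice for a fold change on the log2 scale of 0.26 (SE 0.089, adjusted p = 0.214), without overlap.

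The other genes without overlap in males were Wars, Yars and Rars, for tryptophan, tyrosine and arginine in the cytosol, and Vars2, for valine in mitochondria. Wars was at 12.4, 19.9, 18.2 and 20.1 TPM in WT and 21.1, 25.2, 23.2 and 25.4 TPM in KO mice. Yars was at 9.57, 14.02, 14.2 and 13.9 TPM in WT and 15.6, 15.6, 18.6 and 16.5 TPM in KO mice. For both, the KO mice lay above the WT mice, and WT replicate 1 was well below the rest. Rars was at 8.29, 10.9, 11.03 and 11.8 TPM in WT and 11.98, 14.02, 12.5 and 12.8 TPM in KO mice. Vars2 was at 12.1, 15.3, 11.7 and 13.2 TPM in WT and 15.5, 17.2, 15.6 and 15.5 TPM in KO mice. Adjusted p-values of these genes were 0.223 for Wars, 0.233 for Yars, 0.253 for Rars and 0.224 for Vars2 by limma. The ninth gene at an unadjusted p under 0.05 was Nars, with a log2 fold change of 0.35. On protein-coding transcripts alone, a setting chosen after seeing the data, the male groups overlapped for Vars, Farsb and Vars2. They did not for Iars, Wars, Yars and Rars. Vars was then at 4.71, 4.46, 4.27 and 8.18 TPM in WT and 5.33, 9.25, 7.77 and 6.34 in KO mice. In that fit 8 synthetase genes had an unadjusted p under 0.05, all higher, beside 21.8% of all genes higher and 0.986% lower. The share of all genes without overlap is not given here.

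**Figure D4:**
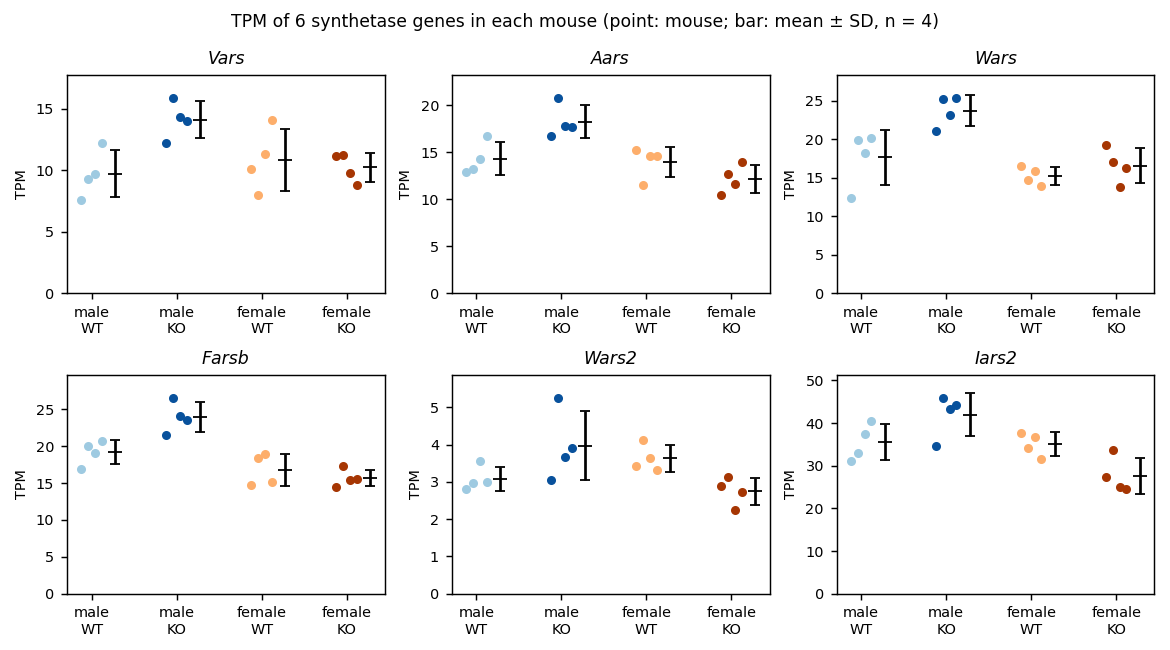
TPM of Vars, Aars, Wars, Farsb, Wars2 and Iars2 in each of the 16 mice, with points for mice and bars for mean ± SD (n = 4 per group). Male KO points lie above all male WT points for Vars, Wars and Farsb, and female KO points lie below all female WT points for Wars2.

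Grouped by function, the median log2 fold change in males was 0.26 over the 11 known ATF4 targets, 5 of which had an unadjusted p under 0.05, and 0.16 over the other 9 cytosolic genes, with 3, all higher, beside 17.7% of all genes. The 5 genes with a motif match had log2 fold changes of 0.34 (Aars), 0.14 (Gars), 0.26 (Iars), 0.20 (Tars) and 0.36 (Yars), and with median-of-ratios scaling the sign of Gars turned, to -0.029. Cytosolic genes with a window and no match had 0.31 (Farsb), 0.22 (Sars), 0.19 (Kars), 0.16 (Farsa), 0.14 (Eprs), 0.12 (Dars), 0.08 (Tarsl2) and 0.03 (Qars). Cytosolic genes without a window had 0.53 (Vars), 0.44 (Wars), 0.37 (Cars), 0.35 (Nars), 0.28 (Rars), 0.16 (Hars) and 0.09 (Lars). Members of the multisynthetase complex, in which several cytosolic enzymes are held together by the scaffold proteins Aimp1, Aimp2 and Eef1e1, had a median of 0.14 over 7 genes, against 0.31 over the 13 other cytosolic genes. By structural class, the median was 0.25 over 16 class I and 0.17 over 18 class II genes. The median of all genes was 0.16.

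With median-of-ratios scaling the median of all genes tested in males moved by more than 0.1, from 0.16 to 0.0011. The medians were then 0.04 for cytosolic and -0.02 for mitochondrial genes, 19 of 35 estimates were above 0, and 5 had an unadjusted p under 0.05: Vars, Wars, Farsb and Nars higher and Fars2 lower, beside 8.29% of all genes higher and 7.4% lower. The sign of 14 of 35 estimates differed from that with TPM as deposited. Relative to the median of all genes, cytosolic genes stood 0.05 above with TPM as deposited and 0.04 above with this scaling. Macrophage markers were higher in male KO mice. Their sum was 46.1 to 89.9 TPM in WT and 118 to 173 TPM in KO mice. With TPM as deposited, 8 of 9 tested markers were higher at an unadjusted p under 0.05, beside 17.7% of all genes. The median log2 fold change of these markers was 0.98, against 0.16 for all genes. The sum of 6 fibroblast markers was 104 to 187 TPM in WT and 217 to 224 TPM in KO mice. The part of these cells in the synthetase values was not tested, and in bulk tissue fewer cells of a type and less RNA per cell cannot be told apart.

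Within the 9 prefix, which held 3 male KO and 2 male WT libraries, the median log2 difference was 0.19 for cytosolic, 0.15 for mitochondrial and 0.14 for all genes, and 0.41 for Vars. With the prefix as a covariate 4 genes had an unadjusted p under 0.05, all higher, beside 7.57% of all genes higher and 0.747% lower.

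In female mice, no synthetase gene passed the test and the lowest p-values belonged to mitochondrial enzymes that were lower in KO mice. Of 35 genes, 17 had an estimate above 0 and 18 below, with medians of 0.10 for cytosolic, -0.03 for mitochondrial and 0.10 for all 12141 genes. Estimates ran from -0.43 to 0.36 among cytosolic genes and, without Lars2, from -0.43 to 0.42 among mitochondrial genes. None passed an adjusted p of 0.05, nor did any other gene (0%). At an unadjusted p under 0.05 there were 2 of 35 genes, both mitochondrial and both lower, where 5.46% of all genes were lower and 11.6% higher. The count was 0 without female WT 2 or 3, 1 without female KO 1 or 4 and 5 without female KO 2. Over the fits that left out 1 library, 379 to 996 of all genes were lower at this threshold and 655 to 2057 higher. Groups did not overlap for 1 gene, which was lower, where 3.19% of all genes were lower in this way and 4.9% higher.

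Wars2 was at 3.42, 4.12, 3.65 and 3.33 TPM in female WT and at 2.90, 3.12, 2.25 and 2.72 TPM in female KO mice, so that the KO mice all lay below the WT mice. The log2 fold change was -0.35 (SE 0.13, limma adjusted p = 0.253). Iars2, the mitochondrial isoleucine enzyme, was at 37.7, 34.2, 36.6 and 31.5 TPM in WT and 27.4, 33.6, 24.9 and 24.6 TPM in KO mice for a fold change on the log2 scale of -0.34 (SE 0.14, adjusted p = 0.268). KO replicate 2 lay within the WT range and the other 3 below it.

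The next genes by p were Rars and Nars2, neither of them under 0.05. Rars was at 10.9, 9.52, 9.90 and 7.84 TPM in female WT and 11.6, 11.7, 10.7 and 12.2 TPM in female KO mice for a fold change on the log2 scale of 0.27 (SE 0.12, adjusted p = 0.300). Nars2, the mitochondrial asparagine enzyme, was at 7.66, 8.20, 8.14 and 6.88 TPM in WT and 4.52, 8.22, 6.42 and 4.09 TPM in KO mice for a fold change on the log2 scale of -0.43 (SE 0.20, adjusted p = 0.311). KO replicates 1 and 4 were the lowest of all 16 libraries for this gene, and also for Dars, the cytosolic aspartate enzyme, at 12.6 and 14.6 TPM, and for Tarsl2, at 4.37 and 4.22 TPM. These are the 2 female KO libraries with high mt-Rnr1. Without them no synthetase gene had an unadjusted p under 0.05. The share of all genes in that smaller fit is not given here, so the count is not a result about the synthetases. The cytosolic median was then 0.02 and the mitochondrial median 0.03, and Wars2 stood at -0.38.

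Scaling decided the sign of the female median of cytosolic genes and of all genes. With TPM rescaled without the mitochondrial genome and Lars2, the median of all genes moved from 0.10 to -0.05, the cytosolic median to -0.06 and the mitochondrial median to -0.19, and 6 genes had an unadjusted p under 0.05, all lower, beside 11.2% of all genes lower and 7.7% higher. Mitochondrial genes stood 0.13 below the median of all genes with TPM as deposited and 0.14 below with this scaling. Endothelial markers were higher in female KO mice, with a sum of 118 to 164 TPM in WT and 184 to 358 TPM in KO mice, and their part in these values was not tested. Within the 8b prefix, which held 1 KO and 3 WT libraries, the median log2 difference was -0.02 for cytosolic, -0.12 for mitochondrial and 0.03 for all genes. Within the 10 prefix, with 1 library of each genotype, it was -0.03, -0.21 and 0.

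When protein-coding transcripts alone were counted, a choice made after these values were seen, more genes were lower in female KO mice. An unadjusted p under 0.05 was reached by 8 genes, 6 lower and 2 higher, where 6.68% of all genes were lower and 12.1% higher, and the smallest adjusted p among them was 0.152. The median was -0.11 for cytosolic and -0.15 for mitochondrial genes, against 0.08 for all genes. Lars, the cytosolic leucine enzyme, was at 4.88, 5.38, 5.61 and 4.06 coding TPM in female WT and 2.31, 3.54, 3.70 and 2.72 in female KO mice, with no overlap. Nars2 was at 3.59, 3.65, 4.16 and 3.03 coding TPM in WT and 2.26, 2.84, 2.14 and 2.40 in KO mice, again with no overlap. Wars2 did not overlap either, by a narrow margin, at 1.24, 2.01, 1.14 and 1.89 in WT and 1.13, 1.04, 0.691 and 0.766 in KO mice. Rars went the other way without overlap, at 10.2, 8.94, 9.79 and 7.74 in WT and 11.2, 11.6, 10.6 and 12.0 in KO mice. The share of all genes without overlap on coding transcripts is not given here. Lars2 had a log2 fold change of -1.11 (SE 0.33, limma adjusted p = 0.162) on its coding transcripts.

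**Figure D5:**
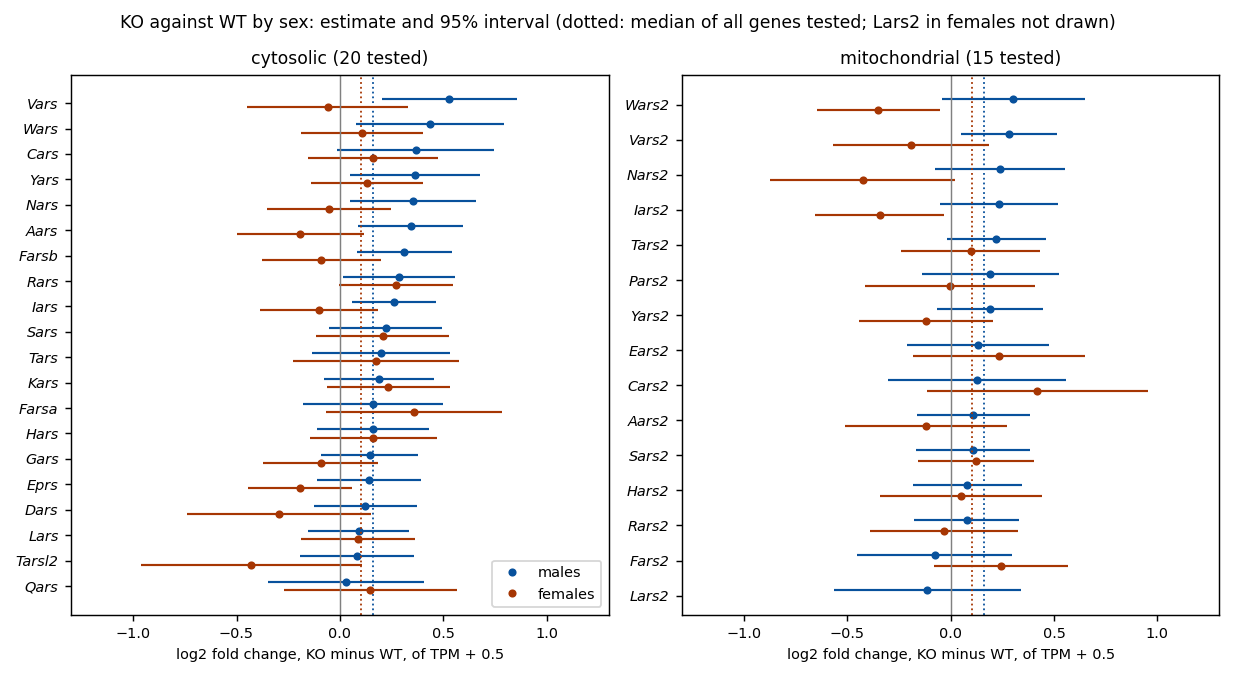
Log2 fold change of TPM + 0.5, KO minus WT, with 95% intervals for each tested synthetase gene in males and in females, and dotted lines at the median of all genes (0.16 in males, 0.10 in females). Male estimates are above 0 for all 20 cytosolic genes, while female estimates lie on both sides of 0. Lars2 in females, at -1.80, is not drawn.

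The difference between the sexes in the KO effect was tested with an interaction term in a fit of all 16 libraries. Of 35 genes, 27 had a lower KO effect in females, with medians of -0.23 for cytosolic, -0.20 for mitochondrial and -0.06 for all 12210 genes. None passed an adjusted p of 0.05, nor did any other gene (0%). An unadjusted p under 0.05 was reached by 10 of 35 genes, all with the lower effect in females and 6 of them cytosolic, where 11.7% of all genes were lower and 2.51% higher. The count was 6 without female WT 1 or 3. Over the fits that left out 1 library, 1000 to 1831 of all genes were lower at this threshold and 142 to 674 higher. The interaction values share every library with the comparisons within each sex and are not separate evidence.

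The smallest p belonged to Wars2, at -0.65 (SE 0.20, limma adjusted p = 0.218). Its level was 2.81, 2.96, 3.55 and 2.998 TPM in male WT and 3.06, 5.25, 3.67 and 3.91 TPM in male KO mice, so it stood on average higher in male KO and lower in female KO mice than in WT. Iars2 followed at -0.58 (SE 0.18, adjusted p = 0.218), with 31.2, 33.1, 37.4 and 40.6 TPM in male WT and 34.6, 45.8, 43.4 and 44.1 TPM in male KO mice. Aars was at -0.53 (SE 0.17, adjusted p = 0.218), with 15.2, 11.6, 14.5 and 14.6 TPM in female WT and 10.4, 12.7, 11.6 and 13.97 TPM in female KO mice. Nars2 was at -0.67 (SE 0.25, adjusted p = 0.268), with 7.73, 5.61, 7.80 and 8.02 TPM in male WT and 7.09, 9.30, 9.43 and 8.86 TPM in male KO mice. The other 6 genes were Farsb, Vars, Iars, Vars2, Eprs and Nars. Without female KO libraries 1 and 4 there were 3 synthetase genes at an unadjusted p under 0.05. The share of all genes in that smaller fit is not given here, so the fall is not a result about the synthetases.

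Relative to the median of all genes, the synthetases stood 0.17 lower in this contrast with TPM as deposited and 0.16 lower with median-of-ratios scaling, under which 22 of 35 estimates were below 0. On protein-coding transcripts the cytosolic median was -0.38 and the mitochondrial median -0.24, against -0.10 for all genes, and 13 genes had an unadjusted p under 0.05, all lower, where 14.2% of all genes were lower and 2.12% higher.

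Between WT females and WT males, no synthetase gene had an unadjusted p under 0.05, where 1.25% of all genes were higher and 2.18% lower in females, and none passed an adjusted p of 0.05, as did 0.0664% of all 12042 genes. For none did the groups fail to overlap, where 0.722% of all genes were higher in this way and 1.2% lower. The medians were -0.15 for cytosolic, -0.05 for mitochondrial and -0.05 for all genes. The 4 smallest p-values belonged to Wars2, higher in females by 0.21 (95% interval -0.07 to 0.48), and to Farsb, Gars and Sars, the serine enzyme, with log2 differences of -0.19, -0.18 and -0.21. Sars was at 29.8, 38.4, 33.7 and 41.9 TPM in male WT and 36.4, 28.1, 32.1 and 27.2 TPM in female WT mice. Farsb was at 14.7, 18.4, 18.9 and 15.1 TPM in female WT mice. All limma adjusted p-values of the synthetases were 0.9999 in this contrast. Sex and library prefix cannot be told apart in it.

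Genes that work with the synthetases gave no call either. Of 20 partner genes, which include the scaffold proteins, the GatCAB amidotransferase that forms mitochondrial glutaminyl-tRNA and the elongation factors, 2 had an unadjusted p under 0.05 in males, both higher in KO mice, beside 17.7% of all genes. Eef1e1 had a log2 fold change of 0.42 (limma adjusted p = 0.220) and Aimp2 of 0.43 (adjusted p = 0.235). In females 4 were higher in KO mice, the subunits of elongation factor 1 Eef1d at 0.51, Eef1g at 0.40 and Eef1b2 at 0.54, and Aimp1 at 0.47, beside 11.6% of all genes. The smallest adjusted p of these 4 was 0.245. In the interaction 1 partner was under 0.05, Gatb at -0.38, and between the WT groups none.

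Among stress response genes outside the family, 3 of 16 tested had an unadjusted p under 0.05 in males, all higher in KO mice, a share near the 17.7% of all genes. Ddit4, a stress-induced inhibitor of mTORC1, was at 8.04, 7.91, 15.98 and 6.68 TPM in male WT and 19.4, 15.7, 18.4 and 23.6 TPM in male KO mice for a fold change on the log2 scale of 1.03 (limma adjusted p = 0.165). Shmt2, of mitochondrial one-carbon metabolism, was at 0.45 (adjusted p = 0.183) and the transcription factor Atf5 at 0.52 (adjusted p = 0.203). In females Ddit4 alone was under 0.05, at 0.83 (adjusted p = 0.256). In the interaction Atf5 was at -0.77 and Shmt2 at -0.57, both under 0.05. Of the 10 interferon response genes, a list kept because interferon induces Wars, none was under 0.05 in males. All 10 were highest among male WT mice in male WT 2, with Isg15 at 17.1 TPM there and 2.62 to 4.56 TPM in the others. The male median was -0.14 with that library and 0.22 without it, when all 10 estimates were above 0. In females 3 were higher in KO mice, Ifit1 at 0.57, Isg15 at 0.52 and Cxcl9 at 0.43, beside 11.6% of all genes, with a median of 0.43 over the list and Wars at 0.11.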

How the data were processed

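BAT RNA of 16 mice was sequenced after TruSeq Stranded mRNA preparation. Per the paper's methods and the submitters' processing notes, the authors quantified reads with kallisto 0.46.2, with GRCm39 named as the genome build, and deposited TPM (a length-normalised share of the library, scaled to the same total in each) for 137438 transcripts. The transcript annotation used and the strand setting are not given in the sources used here. The table holds TPM only, which keeps no read depth, and intervals from counting are therefore not printed. The libraries had 58140 to 65746 transcripts above 0, and no pair was identical.

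Transcripts were matched without version to GENCODE M21 (135051 matched) and summed by symbol. Comparisons used limma 3.58.1 in R 4.3.3 (lmFit, eBayes with trend) on log2(TPM + 0.5), for genes with a mean of at least 1 TPM over the libraries of the fit, with Benjamini-Hochberg adjustment over all genes tested. A fold change on this scale understates that of low genes, and p-values set the difference between groups against the spread between these libraries. The test was checked on simulated data for the male comparison: of 200 genes changed by 1 on the log2 scale among 12177, a median of 138 was called. A median of 4 unchanged genes was called beside them. The largest male estimate of a synthetase gene was 0.53, so the check does not show how often changes of that size are found.

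Named with the values of every mouse were Lars2, the 3 genes highest and lowest in mean TPM, up to 4 genes with the smallest p in each comparison, and genes whose groups did not overlap. The members, the lists and the comparisons were chosen with earlier results of these data known. Alternatives changed the pseudocount, the minimum, the scaling, the trend, the covariates and the libraries. Promoters are RefSeq windows on GRCm38.p6, figures were drawn with matplotlib 3.10.9, and 13 of the genes have exons that overlap another gene, 2 of them on the same strand.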

Additional observations from a re-analysis of the deposited data

Results flagged for a closer look

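Among 144 groups of 4 libraries, 1 for each gene and group, 9 held a library set apart from the other 3 by Dixon's ratio (at its 95% critical value), and chance gives about 1 in 20 groups. Of these, 5 concern genes picked by the rule for naming with the values of every mouse. Lars2 was at 15315 TPM in female WT 4 and at 76.3 to 127.5 TPM in the other female WT libraries. Sars was at 37.7 TPM in male KO 1, where the others were at 42.9 to 43.2. Yars was at 9.57 TPM in male WT 1, where the others were at 13.9 to 14.2. Nars2 was at 5.61 TPM in male WT 2, where the others were at 7.73 to 8.02. Vars2 was at 17.2 TPM in male KO 2, where the others were at 15.5 to 15.6. Hars2 and Tars2, given above by range, were flagged as well. Hars2 was at 13.4 TPM in female WT 2, where the others were at 21.02 to 21.5. Tars2 was at 22.7 TPM in male KO 1, where the others were at 25.4 to 25.9.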

How the results depend on the processing

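No synthetase gene passed an adjusted p of 0.05 in any alternative run. The 4 genes with the smallest p in each comparison were picked from these same data, so a kept sign is not separate evidence. They kept their sign in all 349 values computed for them. Other genes did not: in males 14 of 35 changed sign with median-of-ratios scaling, and Lars in females went from 0.09 to -0.63 on protein-coding transcripts. The counts of genes at an unadjusted p under 0.05 were less stable. In males the count of 9 became 5 with median-of-ratios scaling and 4 with the library prefix as a covariate. In females the count of 2 became 1 with a minimum of 5 TPM, 7 with median-of-ratios scaling and 5 with all 16 libraries in one fit. It became 6 when scaled without the mitochondrial genome and Lars2, 8 on protein-coding transcripts and 10 on these with the nuclear scaling. Without female KO libraries 1 and 4 it became 0, and the interaction count of 10 became 3. Of all genes, 10.4% were lower and 10% higher in females with median-of-ratios scaling. On protein-coding transcripts with the nuclear scaling, 12.7% were lower and 9.95% higher. The shares for the minimum of 5 TPM, the single fit and the removal of female KO libraries 1 and 4 are not given here. Leaving out 1 library gave 5 to 12 genes in males, 0 to 5 in females, 6 to 13 in the interaction and 0 to 1 between the WT groups. The counts of all genes moved in the same fits. They ran over 1138 to 2879 higher in males, 379 to 996 lower in females and 1000 to 1831 lower in the interaction. The male medians became 0.041 (cytosolic) and -0.019 (mitochondrial) with median-of-ratios scaling, and -0.042 (mitochondrial) on protein-coding transcripts with the nuclear scaling. The female cytosolic median became -0.063 with the nuclear scaling, -0.020 with the prefix, -0.11 on protein-coding transcripts and -0.22 on these with the nuclear scaling, where the mitochondrial median was -0.26. The cytosolic median was -0.38 in the interaction on protein-coding transcripts, and 0.050 between the WT groups on these with the nuclear scaling. The cause of these shifts was not tested.

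With the replicate number as a replicate block, Wars2 in females kept its value of -0.35 (limma adjusted p = 0.289). Same-numbered libraries correlated at -0.109 to 0.350 and not every library matched its own number best, so the numbers were not taken as pairs. The prefix fit could not be made between the WT groups, which share no prefix. The protein-coding settings and the removal of female KO libraries 1 and 4 were chosen after seeing the data. TPM without read counts limits what can be said of low genes such as Mars2.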
